A study of Rousettus aegyptiacus with 32 samples.

Results

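Open chromatin found in both cortex and striatum of the Egyptian fruit bat, Rousettus aegyptiacus, but not in its cerebellum, comprised 794 regions. They were chosen from ATAC-seq peak lists, which mark where a transposase can cut accessible DNA. The 50000 intervals with the highest -log10 p of each library were its strong intervals, and those of the 12 cortical and striatal libraries were merged into 96302 regions. Of these, 21706 held a strong interval in all 12 libraries, and 794 of the 21706 (3.66%) overlapped no deposited interval of any strength in the 2 cerebellum libraries. Strength in the 12 libraries and absence from cerebellum were thus set by the choice and are given below as description. A further 736 regions (3.39%) had an interval in 1 cerebellum list, and 20176 (93%) had one in both. The 17615 regions that were strong in all 12 libraries and also in both cerebellum libraries are called pan-brain regions here and serve as the comparison.

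All libraries were bulk tissue of adult males with no treatment, numbered bat 1 and bat 3. Each bat gave 1 library of secondary auditory cortex (2A), of the orofacial and the wing part of primary motor cortex (ofM1 and wM1), of premotor cortex (PreM), of the caudate and putamen, which together form the striatum, and of cerebellum, liver, pectoralis muscle and testis. There were therefore 8 cortical, 4 striatal, 2 cerebellar and 6 non-brain libraries. The study dealt with convergent evolution of regulatory elements and proteins in mammals that learn vocalisations, and cortex and striatum are parts of the forebrain circuit it sampled.

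Regulatory elements such as enhancers and promoters are bound by transcription factors and become accessible in the cell types that use them. Promoters of widely used genes tend to be open in most tissues, whereas enhancers are more often restricted. Cortex and striatum both arise from the embryonic telencephalon, the front of the forebrain, and cerebellum from the hindbrain, where granule neurons come to outnumber all other cells. Both parts of the telencephalon also hold glia and blood vessels, as cerebellum does. In bulk tissue, fewer cells with an open region and a less open region in each cell cannot be told apart.

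The 20 lists held 155151 to 238945 separate intervals. No read depth goes with them, and 15 ended at 300000 rows. Among these were both cerebellum lists, whose weakest entries had a -log10 p of 5.28 (bat 1) and 3.53 (bat 3), so absence means that no peak reached those values. Muscle of bat 1 stood apart from the other non-brain libraries. It had an interval at 39.1% of 2806 regions found in striatum only (strong in all 4 striatal libraries, no interval in cortex or cerebellum), against 10.1% for muscle of bat 3. Liver and testis of bat 1 were also above those of bat 3 there, by a smaller margin, with 17.2% against 10.6% and 18.9% against 11.3%. At cortex-only regions, defined in the same way, its share was 19.5% and that of the other 5 libraries 16.0% to 29.1%. Results on non-brain tissue are therefore also given without this library. The faintest list was that of liver in bat 1, whose strong intervals had a median fold of 2.23, against 3.51 to 6.08 in the other non-brain libraries. The positions are those of the files. The genome build, the genes nearby and the DNA sequence of the regions were not analysed here.

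As merged over the 12 libraries, the 794 regions had a median width of 1238.5 bases, with quartiles of 1019 and 1498 and a range of 272 to 3169. They were narrower than pan-brain regions, at a median of 1392 bases, but not than pan-brain regions of weakest rank over 25000, at 1239. More than 2 summits per interval, as a mean over libraries, were found in 51.9% of them, against 72.2% of all pan-brain regions and 58.4% of those of weakest rank over 25000. Fold enrichment over the peak caller's background, which is the authors' own value for each peak and is not scaled between lists, had a median of 7.28 to 10.9 over the regions in the 8 cortical libraries and of 9.98 to 14 in the 4 striatal ones. For pan-brain regions the medians were 9.53 to 13 and 12.6 to 15. In 88.4% of the 794 the fold was at least 5 in every one of the 12 libraries, and in 20 it was at least 10. The highest fold of a region was a median of 2.31 times its lowest. Peak summits lay at the same place in the different libraries: the median distance of a library's summit from the region's median summit was 7 bases, and it was within 50 bases in 97.2% of regions, close to the 98.2% of pan-brain regions.

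Absence from cerebellum was commonest among the weakest shared regions. None of the 4914 regions that ranked within the first 10000 intervals of all 12 libraries lacked a cerebellum interval, and 14 of 4365 (0.321%) did so where the weakest rank was between 10001 and 20000. The share then went from 2.72% to 6.15% and, for weakest ranks of 40001 to 50000, to 9.87% (417 of 4223). Regions without a cerebellum interval are therefore weaker than pan-brain regions, and the comparisons with pan-brain regions that follow are given again for regions whose weakest rank was over 25000, which held 750 of the 794 and 6827 of the pan-brain regions. At the rank cut itself, the last region included was at bases 2180863 to 2181945 of scaffold NW_023416288.1, ranked 49985 in putamen of bat 3, with folds of 6.01 to 10.1. The first left out, at bases 142729048 to 142730081 of scaffold NW_023416306.1, ranked 50040 there, with folds of 5.54 to 12.4.

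**Figure D1:**
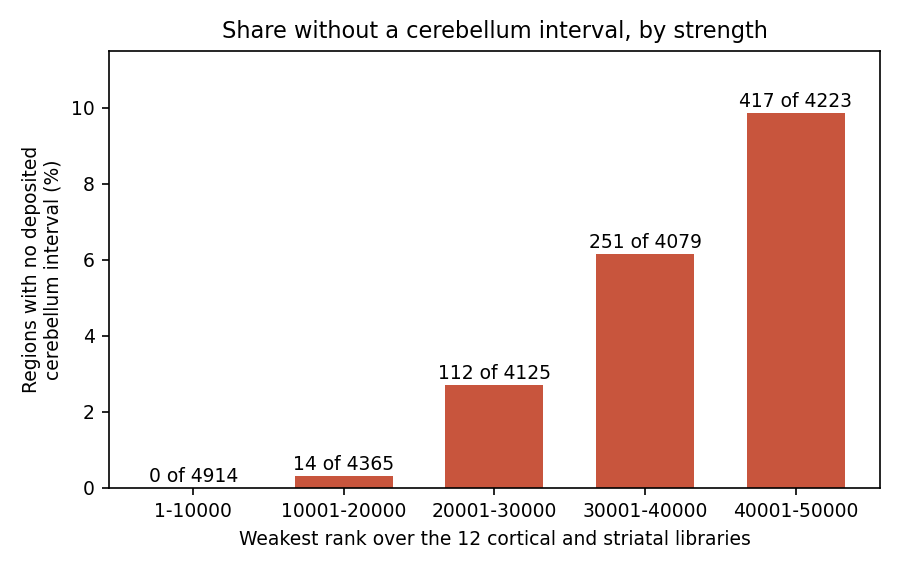
Percentage of the 21706 regions strong in all 12 cortical and striatal libraries that had no deposited cerebellum interval, by the region's weakest rank over the 12 libraries. Bars are shares of regions, with counts above them; the share goes from 0 of 4914 to 417 of 4223.

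Within each list the regions ranked in the middle of the 50000 strong intervals, and highest in caudate. The median rank, where 1 is strongest, was 18977.5 in caudate of bat 1 and 20725 in caudate of bat 3, against 24607 and 24660.5 in putamen. The 8 cortical medians ran from 22228 in 2A of bat 1 to 27777 in wM1 of bat 3, with a median of 25020.5, so both caudate libraries lay above all cortical ones and both putamen libraries among them. Pan-brain regions had the opposite order, with median ranks of 9305 to 10963 in the cortical libraries and of 12658 and 13161 in caudate. Among regions of weakest rank over 25000 the medians in caudate of bats 1 and 3 were 19865 and 21873 without a cerebellum interval and 26392 and 27041 for pan-brain regions, and the cortical medians were 23019 to 28394 and 17813 to 22703. The libraries in which single regions ranked highest were also most often those of caudate, with 308 regions. The 2A libraries followed with 131, PreM with 117, ofM1 with 111, putamen with 79 and wM1 with 48. In bat 1, 134 of the 794 (16.9%) were among the 10000 strongest intervals of caudate. In cortex of bat 1 the counts ran from 16 (2.02%) in wM1 to 62 (7.81%) in 2A. Pan-brain regions were there more often, at 42.2% in caudate, 52.9% in wM1 and 46.7% in 2A of bat 1.

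**Figure D2:**
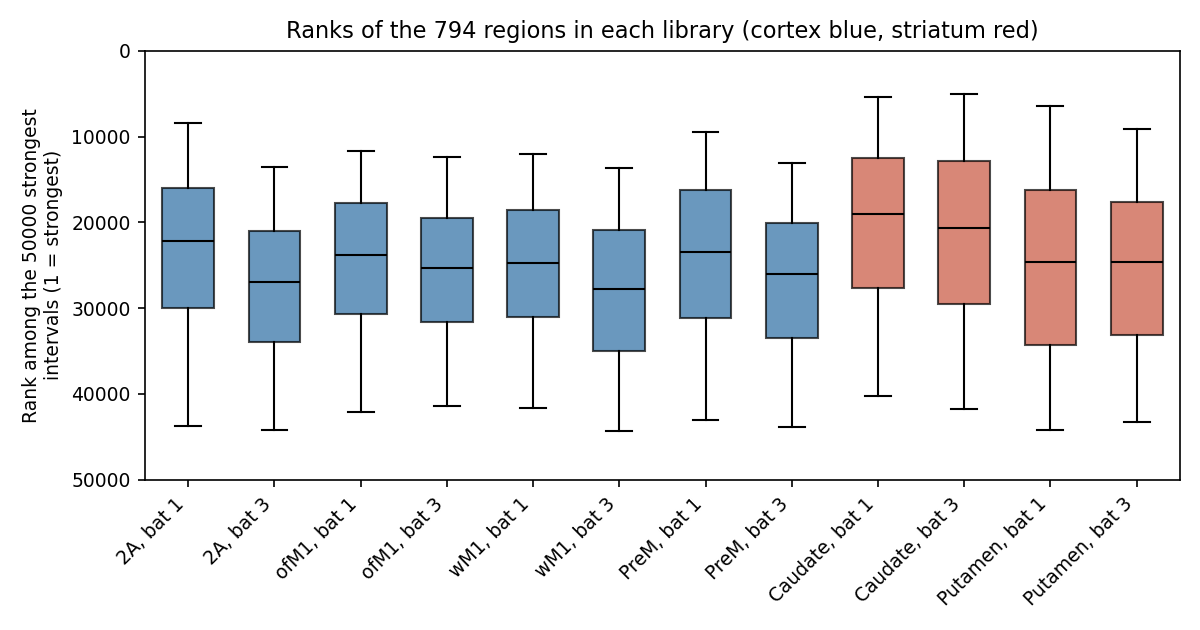
Rank of the 794 regions among the 50000 strongest intervals of each cortical (blue) and striatal (red) library, with 1 at the top. Boxes span the quartiles with the median as a line, and whiskers reach the 5th and 95th percentiles; the 2 caudate medians, 18977.5 and 20725, are above the 10 others.

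Whether single regions were stronger in cortex or in striatum was compared with limma on the normal score of each rank, a scale on which 0 is rank 25000, positive values are stronger and the 50000 intervals of every list spread like a standard normal distribution. The fit covered all 21706 regions, with Benjamini-Hochberg adjustment over them. It uses the ranks by which the regions were chosen, cut at 50000 in 8 cortical and 4 striatal lists, so regions much weaker in either structure are not among them and the p-values describe only regions past that cut, which all those tested share. Of the 794, 197 were stronger in striatum (24.8%) and 94 stronger in cortex (11.8%), and 63.4% did not pass. Calls in either direction came to 291 among the 794 and to 25.3% of all regions tested, over which the balance lay the other way: 8.24% were stronger in striatum and 17.1% in cortex. Among all regions with a weakest rank over 25000, 10.4% were stronger in striatum and 24.2% in cortex, against 25.2% and 12.3% of the 750 such regions without a cerebellum interval. The median difference (cortex minus striatum) was -0.14 for the 794 and 0.12 over all regions, a shift of all regions toward cortex. Every library was also centred on the median of all regions, a setting chosen after seeing the data. Then 238 of the 794 (30.0%) were stronger in striatum and 60 (7.56%) in cortex, against 13.9% and 10.8% of all regions. The share of striatum among called regions went from 67.7% to 79.9% for the 794. Over all regions called it went from 32.5% to 56.2%.

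Complete separation of the libraries is another reading of the same scores and not separate evidence. In 135 of the 794 (17%) all 4 striatal scores were above all 8 cortical ones, against 5.77% of all regions, and in 41 (5.16%) they were below, against 7.61%. The libraries came from 2 animals, and p-values over libraries treat pieces of 1 brain as separate samples. With the libraries of a structure averaged per animal and the animal as a block, 235 were stronger in striatum and 105 in cortex. Over all 21706 regions these counts were 1575 and 3778.

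**Figure D3:**
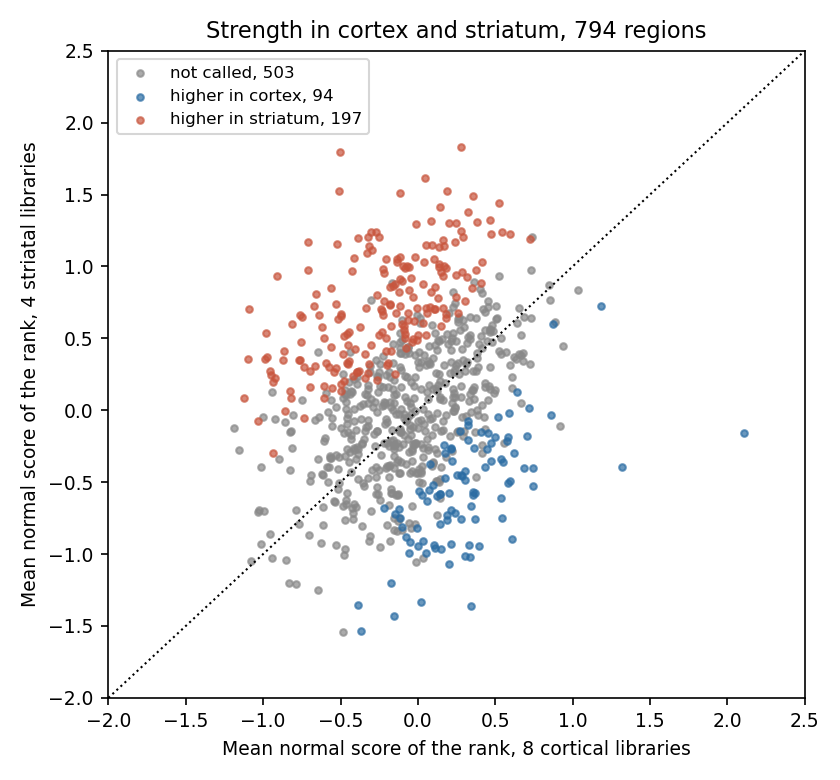
Mean normal score of the rank of each of the 794 regions over the 8 cortical libraries (x axis) and the 4 striatal libraries (y axis), higher being stronger. Points are regions coloured by the limma call, 197 stronger in striatum (red), 94 in cortex (blue) and the rest not called (grey), and the dotted line marks equal scores.

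**Figure D4:**
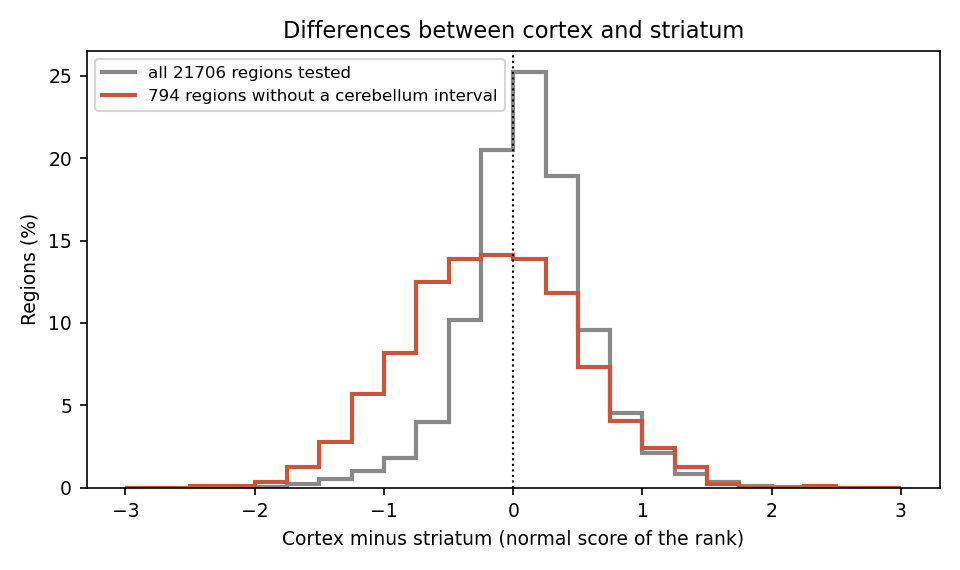
Distribution of the cortex minus striatum difference in normal score for the 794 regions (red) and all 21706 regions tested (grey), as a percentage of regions per bin of 0.25. The medians are -0.14 and 0.12, and the 794 regions reach further to the striatal side.

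The region with the largest difference toward striatum was at bases 27604643 to 27605960 of scaffold NW_023416290.1. Its enrichment was 21.9-fold and 23.7-fold in caudate and putamen of bat 1 and 24.4-fold and 17.5-fold in those of bat 3, and 6.8-fold at the lowest, 8.21-fold at the median and 12.4-fold at the highest in the 8 cortical libraries. All 4 striatal libraries were above all cortical ones, both in fold and in rank. The score was -0.50 ± 0.69 (SD, n = 8) in cortex and 1.79 ± 0.23 (SD, n = 4) in striatum, a difference of -2.30 ± 0.32 (SE; limma, adjusted p = 0.000284).

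The next region, on scaffold NW_023416295.1, spanned bases 5896614 to 5897657. Folds were 24.5 and 25.8 in caudate and putamen of bat 1, 25.7 and 19.7 in those of bat 3, and 6.47 to 15.2 in cortex with a median of 8.2, again without overlap (difference -2.04 ± 0.25, SE; limma, adjusted p = 0.000161). Here 2A of bat 1, at 15.2-fold, stood above the other cortical libraries. The third, at bases 40467682 to 40469107 of scaffold NW_023416284.1, ranged from 13.8- to 14.8-fold in striatum and from 7.24- to 15.5-fold in cortex, so its folds overlapped although its ranks did not. Its difference was -1.88 ± 0.37 (SE; limma, adjusted p = 0.00274), and it fell short of a call when intervals were ranked by fold (-0.42; limma, adjusted p = 0.209).

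The fourth, at bases 19729043 to 19730430 of scaffold NW_023416306.1, also came first of the 794 in muscle by the worse of the ranks in the 2 animals, 6896. Other regions ranked higher in muscle of a single bat. Its folds were 10 to 16.4 in striatum and 4.09 to 6.42 in cortex, and 6.4 and 8.91 in muscle of bats 1 and 3. It had no interval in testis or in liver of bat 3. The fifth was at bases 13135194 to 13136573 of scaffold NW_023416292.1, with 10.6- to 16-fold enrichment in striatum and 4.64- to 7.14-fold in cortex. The differences were -1.84 ± 0.31 and -1.80 ± 0.22 (SE; limma, adjusted p = 0.000954 and 0.000128).

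The 2 largest differences toward cortex belonged to narrow peaks that were open in every library except those of cerebellum. The first, 272 bases wide, lay at bases 98820165 to 98820436 of scaffold NW_023416310.1. Its folds were 17.5 at the lowest, 25.5 at the median and 33.8 at the highest in cortex, and in striatum 14.7 and 17.5 in caudate and 10.9 and 23.6 in putamen of bats 1 and 3. Outside the brain the folds, which are not scaled between lists, were 35.7 and 37.8 in testis, 12.2 and 19.3 in liver and 16.3 and 6.39 in muscle. The ranks there were 39 and 28 in testis, 103 and 94 in liver and 203 and 15925 in muscle of bats 1 and 3. In cortex they were 2862 to 15437 in bat 1 and 16 to 323 in bat 3. The region ranked 16 among all intervals of wM1 and 28 among those of testis, both of bat 3, yet no cerebellum interval overlapped it. The score was 2.11 ± 1.09 (SD, n = 8) in cortex and -0.16 ± 0.96 (SD, n = 4) in striatum (difference 2.27 ± 0.55, SE; limma, adjusted p = 0.0093).

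The second, 335 bases wide, lay at bases 54916463 to 54916797 of scaffold NW_023416291.1. It was enriched 15.3- to 28.4-fold in cortex with a median of 22.7, and 11.2- to 18.6-fold in striatum. In testis it was at 15.5- and 16.5-fold, in liver at 8.08- and 12.1-fold and in muscle at 10.5- and 7.01-fold (cortex minus striatum 1.71 ± 0.37, SE; limma, adjusted p = 0.00528). Peaks this narrow were rare, since 4 of the 794 and 79 of the 21706 regions were under 400 bases. For both, absence from cerebellum means only that no interval is listed, since read coverage, mappability and any filtering of the lists were not examined.

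The other 3 leading cortical regions had usual widths of 983 to 1560 bases and differences of 1.35 to 1.71. At bases 134976956 to 134977938 of scaffold NW_023416306.1, all 8 cortical ranks, 14132 to 23869, were ahead of the striatal ones, which were 36934 and 38158 in caudate and putamen of bat 1 and 48959 and 49027 in those of bat 3 (difference 1.71 ± 0.25, SE; limma, adjusted p = 0.000417). The folds did not show this order, with 8.03 to 12 in cortex and 13.7, 12.3, 11.2 and 8.17 in those striatal libraries. Fold and -log10 p rank the peaks of a list differently, and the calls are those of the ranks by -log10 p.

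The 10 regions with the best weakest rank were strong everywhere in cortex and striatum. Their weakest ranks were 13903 to 19442, their folds 6.91 to 18.6 in cortex and 9.76 to 24.1 in striatum, and their widths 850 to 2279 bases. The first, at bases 150428033 to 150430311 of scaffold NW_023416306.1, was enriched 7.6- to 13.7-fold in cortex with a median of 9.65, and 14.4-, 15.3-, 13.4- and 9.76-fold in caudate of bats 1 and 3 and putamen of bats 1 and 3. Its ranks overlapped, 7049 to 13495 in cortex and 5595 to 13903 in striatum (difference -0.02 ± 0.15, SE; limma, adjusted p = 0.915). Of the 10, 2 were called stronger in cortex and 2 in striatum. The one whose call held under every setting tried was at bases 105577403 to 105578504 of scaffold NW_023416311.1, with 17.3- to 22.9-fold enrichment in striatum and 9.32- to 16-fold in cortex (difference -0.92 ± 0.11, SE; limma, adjusted p = 0.000136).

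Between the 2 animals, the 794 regions were on the whole slightly stronger in bat 1, with a median difference (bat 3 minus bat 1) of -0.14 against 0.04 over all regions. With the brain region as a block, limma called 4 of the 794 stronger in bat 1 and 1 in bat 3, against 0.111% and 0.143% of all regions, and 223 (28.1%) had an unadjusted p under 0.05, against 23.3% of all regions. With intervals ranked by fold, 60 were called stronger in bat 1 and 12 in bat 3, against 1066 and 836 of all 21706 regions. The comparisons between animals, like that of cortex and striatum, use the ranks by which the regions were chosen. Regions much weaker in either bat are therefore not among them, and the p-values describe only regions past the rank cut. The median size of the difference was 0.24 between animals and 0.46 between cortex and striatum. The 5 are named because they are few. The region stronger in bat 3 was the narrow peak of 272 bases, with ranks of 16 to 323 in the 4 cortical libraries of bat 3 and of 2862 to 15437 in those of bat 1 (bat 3 minus bat 1: 1.71 ± 0.28, SE; limma, adjusted p = 0.0493). Those stronger in bat 1 started at base 60287310 of scaffold NW_023416287.1, 52538505 of NW_023416290.1, 87545344 of NW_023416309.1 and 89674286 of NW_023416310.1, with differences of -0.87 to -0.96. In this fit the loss of 1 library takes its brain region out of the comparison. Without 2A, ofM1, wM1, PreM or putamen, limma called 0 of the 794, with 157 to 239 at an unadjusted p under 0.05. Over all regions it then called 0 to 7 stronger in bat 1 and 0 to 5 in bat 3. There 3224 to 4887 of all regions had an unadjusted p under 0.05. Without caudate it called 44 of the 794 stronger in bat 1 and 8 in bat 3, against 406 and 640 of all regions. Whether the cortex-striatum difference itself differed between animals was tested as an interaction in limma. It gave 0 calls among the 794, with 62 (7.81%) at an unadjusted p under 0.05 against 6.19% of all regions.

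Liver, muscle and testis were not used to choose the regions, and far fewer of the 794 than of the pan-brain regions were open there. Pan-brain regions were chosen as strong in a further tissue, cerebellum, and the 794 as having no interval in it. How far the lower shares outside the brain follow from that choice was not tested. In liver 22.3% (bat 1) and 29.7% (bat 3) of the 794 overlapped an interval of any strength, against 51.5% and 84.7% of pan-brain regions. In testis the shares were 41.7% and 37.8%, against 91.7% and 87.6%. In muscle they were 66.8% in bat 1 and 26.8% in bat 3, against 96.3% and 94.2%. All 6 libraries had the lower share, with means of 37.5% and 84.3% and a difference of -46.8 ± 14.9 percentage points (SD, n = 6 libraries; exact sign-flip permutation p = 0.0312, 2-sided, the smallest that 6 libraries can give, and 0.0312 after adjustment over 3 comparisons). The 6 libraries came from 2 animals, and the permutation treats them as separate samples. Without muscle of bat 1 the difference was -50.3 points. With regions of weakest rank over 25000 on both sides it was -36.6 points, and it was negative in each of the 6 libraries, between -11.2 and -62.0. This band does not fully match strength. Within it, regions without a cerebellum interval still had weaker median ranks than pan-brain regions in cortex and putamen, and stronger ones in caudate. For weakest ranks over 40000, a setting that was not planned, the difference was -32.6 points.

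**Figure D5:**
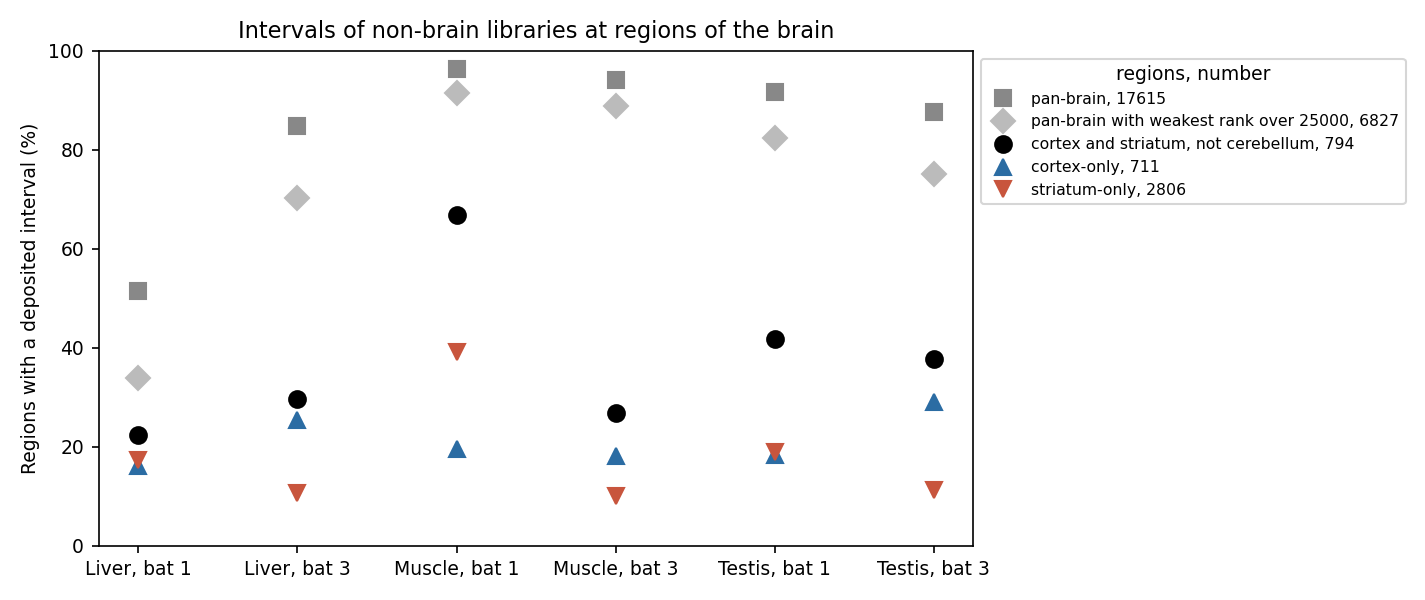
Percentage of regions with a deposited interval of any strength in each liver, muscle and testis library. Points are sets of regions; the 794 regions without a cerebellum interval (black) lie below the pan-brain regions (squares and, for weakest ranks over 25000, diamonds) and above the cortex-only (blue) and striatum-only (red) regions in all 6 libraries.

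Regions found in cortex only or striatum only were open outside the brain less often still. On average over the 6 libraries, 21.1% of the cortex-only and 17.9% of the striatum-only regions had an interval there. The 794 were higher in 6 of 6 libraries in both comparisons, by 16.4 ± 16.5 and 19.7 ± 8.28 percentage points (SD, n = 6; exact sign-flip permutation p = 0.0312 each, and adjusted p = 0.0312 over the 3 comparisons). Without muscle of bat 1 the first difference fell to 10.3 points and the second was 18.04. The smallest p that 5 libraries allow is 0.0625, which both then had. Here too the libraries came from 2 animals and were treated as separate samples. These sets need a strong interval in fewer libraries than the 794 do, and their strengths were not matched. They were also chosen as having no interval in striatum or in cortex, besides none in cerebellum. How far their lower shares outside the brain follow from that choice was not tested.

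Few of the 794 were strongly open in a non-brain tissue of both animals. A strong interval in both animals was found at 45 regions for muscle (5.67%), 32 for testis (4.03%) and 3 for liver (0.378%), against 82.8%, 72.0% and 29.1% of pan-brain regions. For weakest ranks over 25000 the shares were 5.73%, 3.6% and 0.4%, against 68.1%, 47.4% and 10.8%. In testis, 186 regions had an interval of any strength in both animals, which was 56.2% of those in bat 1 and 62.0% of those in bat 3. In muscle, 165 had one in both, 77.5% of those in bat 3 but 31.1% of the 530 in bat 1. Intervals in both animals of 1 tissue and in no other non-brain library were found at 25 regions for muscle, 12 for testis and 5 for liver. At the other end, 95 of the 794 (11.96%) had no interval in any of the 6 libraries, against 0.585% of pan-brain regions, 33.6% of cortex-only and 38.3% of striatum-only regions. For weakest ranks over 25000 it was 12.5%, against 1.46% of pan-brain regions.

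Muscle of bat 1 was also the library in which regions stronger in striatum and the others differed most. It had an interval at 159 of the 197 regions stronger in striatum (80.7%), 60 of the 94 stronger in cortex (63.8%) and 61.8% of those not called. In muscle of bat 3 the shares were 21.3%, 28.7% and 28.6%, lowest in the regions stronger in striatum. What part this library's resemblance to striatum has in its high share was not tested.

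Only 9 of the 794 (1.13%) had an interval in all 6 non-brain libraries, against 45.5% of pan-brain regions, and so were open in all 18 libraries outside cerebellum. For weakest ranks over 25000 the shares were 1.2% and 23.6%. They were the 2 narrow peaks and 7 regions of 1024 to 1707 bases whose folds in liver, muscle and testis were 1.62 to 10.4. One of the 7, at bases 45513476 to 45514544 of scaffold NW_023416287.1, had its highest non-brain folds in muscle of bat 3, at 10.4, and in testis, at 5.14 and 5.19. It was chosen after its values were seen, as were the following 2. After the narrow peaks, the first region in testis, by the worse rank of the 2 animals, was at bases 16294214 to 16295602 of scaffold NW_023416293.1. It was at 6.25- and 8.78-fold in testis of bats 1 and 3, and it had no interval in liver or in muscle of bat 3. The second region in muscle by the same measure, at bases 53080985 to 53081845 of scaffold NW_023416309.1, was at 6.12- and 12.5-fold there, and in cortex and striatum at 8.86- to 17.7-fold and 11- to 15.1-fold.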

How the data were processed

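The authors deposited 1 peak list per ATAC-seq library in the narrowPeak layout, not pooled over animals, and with a fold (a linear ratio to the caller's background), a -log10 p and a -log10 q for each peak. Bowtie2, MACS2 and Salmon 1.5.2 are named, without roles, in the submitters' processing notes; the genome build was not given in the sources used here. Rows of 1 interval were collapsed with the highest values kept, and the 50000 intervals with the highest -log10 p were the strong ones. Ties at the cut (at most 217 intervals left out in 1 of the 12 libraries) were broken by position. Overlap was at least 1 base, touching intervals were merged, and coordinates count from 1. Ranks in lists cut to 1 length were compared with limma 3.58.1 (R 4.3.3), 2-sided, with a threshold of 0.05, after tests on simulated scores and lists; the rest used Python 3.11.15 and scipy 1.17.1. The number in a label names the bat, so equal numbers pair libraries through their animal.

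The regions named are the 10 with the best weakest rank, the 5 with the largest called difference in each direction and the neighbours of the rank cut; others are marked as chosen after their values were seen. Members, lists and tests were chosen with earlier results of these data known. The 12 RNA-seq libraries were not used, because their features carry numbers without names or positions. Planned tests of gene starts, gene lists, GC content and motifs were not run, because no genome was used and the gene table of assembly GCF_014176215.1 gives no scaffolds. Peak lists carry no depth, so no counting interval is given.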

Additional observations from a re-analysis of the deposited data

Results flagged for a closer look

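In 44 groups of 4 or 8 libraries, 3 had a library set apart from the rest by Dixon's criterion, which chance meets in about 1 group in 20. In 2A of bat 1 the fold was 18.01 at bases 23267462 to 23268661 of scaffold NW_023416289.1, one of the 10 strongest regions, where the 7 other cortical libraries lay between 12.2 and 13.98. The same library was at 15.2-fold in the second striatal region, at base 5896614 of scaffold NW_023416295.1, where the others lay between 6.47 and 10.4. Putamen of bat 3 was at 14.6-fold at bases 131309548 to 131310947 of scaffold NW_023416307.1, below the 3 other striatal libraries, which were at 21.5 to 22.7.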

How the results depend on the processing

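The number of regions depended on the thresholds. It was 44 with the 25000 strongest intervals per library, 2520 with 75000 and 16717 with every deposited interval, 2958 when only a strong cerebellum interval counted as presence, and 3135 when both presence and absence were judged by 50% reciprocal overlap. Without 1 library or 1 animal it ran from 800 to 2184: without 1 of the 12 libraries 800 to 856, without cerebellum of bat 3 1367, without bat 1 1426 and without bat 3 2184. Without cerebellum of bat 1 it was 957. The difference from pan-brain regions outside the brain was -57.4 to -36.3 points without 1 library or animal, where 5 libraries or fewer cannot reach a p under 0.05, and -61.6 to -32.6 points under the 4 other settings. Counts of 197 and 94 regions stronger in striatum and cortex were 219 and 109 with the animal as a replicate block, which changed no count by over 1.5 times. Over all regions, 1789 and 3710 in the main fit became 2146 and 4456 with this block. Without 1 library the counts of the 794 were 135 to 212 and 70 to 101, and those of all regions 1138 to 1984 and 2119 to 4594. With centred scores, 60 of the 794 and 2355 of all regions were stronger in cortex. Among the 794, the striatal count was 141 or 135 without caudate of bat 1 or bat 3. Without putamen of bat 1 or bat 3 it was 164 or 199. Ranked by fold the counts were 239 and 91 of the 794, and 2400 and 5241 of all regions. Of the 291 calls, 178 were kept in the same direction. Between animals, the 4 and 1 calls became 1 and 0 without the block on the brain region, 60 and 12 when ranked by fold, and 0 to 44 and 0 to 8 without 1 library. Over all regions, 24 and 31 calls became 13 and 22, 1066 and 836, and 0 to 406 and 0 to 640 under these settings. Over all settings of the 20 named regions, 294 values of cortex minus striatum kept their call and sign, 34 lost the call and 12 changed sign. Only 1 of the 12 was at a called region, at base 131309548 of scaffold NW_023416307.1, which went from 0.46 to -0.21 when ranked by fold. The 11 others were at 5 uncalled regions. Ranked by fold, those at base 150428033 of NW_023416306.1, 145054653 of NW_023416307.1, 5972293 of NW_023416295.1 and 180504402 of NW_023416284.1 became 0.089, -0.20, -0.16 and -0.45. With centred scores, those at base 23267462 of NW_023416289.1 and 145054653 became -0.051 and -0.099. Without 1 library, that at 150428033 ran from -0.12 to 0.091. The cause was not tested. The planned repeat on regions away from gene starts was not run.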

Other observations

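The 794 regions were spread over 18 scaffolds rather than gathered in a few. Their share of the regions strong in all 12 libraries was 1.46% to 6.01% per scaffold, highest on NW_023416310.1 with 83 of 1380. Most stood alone: 685 had no other of the 794 within 100 kb, while 109 lay in 51 runs of neighbours at most 100 kb apart, 7 of them with 3 regions. The tightest run of 3 spanned 34.4 kb, at bases 179140419 to 179174773 of scaffold NW_023416284.1, and held 1 pan-brain region besides. The run at bases 15486233 to 15530069 of scaffold NW_023416287.1 held no region strong in all 12 libraries other than its 3 members. These runs were chosen after their positions were seen.

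The median distance from a region to the nearest pan-brain region was 31.7 kb, against 25.5 kb between neighbouring pan-brain regions. A striatum-only region lay within 50 kb of 18.01% of the 794 and of 14% of pan-brain regions, and a cortex-only region within 50 kb of 5.42% and 3.88%. Within the 794, a striatum-only region lay within 50 kb of 23 of the 94 regions stronger in cortex (24.5%), 42 of the 197 stronger in striatum (21.3%) and 15.5% of those not called; these differences were not tested. The nearest cerebellum interval was a median of 5.84 kb (bat 1) and 5.95 kb (bat 3) from the edge of a region, and in 27 and 30 of the 794 it was under 500 bases away.

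Regions with an interval in 1 cerebellum list lay between the 794 and the pan-brain regions outside the brain. Their shares with an interval were 26.4% and 38.9% in liver, 76.5% and 41.3% in muscle and 55.3% and 49.5% in testis of bats 1 and 3. Of these 736 regions, 573 had the interval in bat 3 and 163 in bat 1, whose cerebellum list ended at the higher -log10 p.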
